A study of Rattus norvegicus with 4 samples.

Results

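miR-122 is the microRNA (miRNA, a short RNA that represses messenger RNAs) by which hepatocytes are best known, and both of its arms were followed here in small RNA libraries of rat liver. The members were the rows rno-miR-122, the major arm, and rno-miR-122*, the minor arm, called miR-122 and miR-122* below. They make 2 of the 680 rat miRNA names in each table. The samples were liver tissue labelled as hepatic fibrosis or as normal, with 2 replicates each. All 4 libraries were made from total RNA with the same Illumina small RNA kit. How fibrosis was induced, the strain, age and sex of the rats, and whether replicates were separate animals are not stated in the labels. Any p-value therefore measures only the spread between libraries, which may be technical.

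The tables of fibrosis replicate 2 and normal replicate 2 differed in 0 of 680 values, and the column header of the latter is not its sample title. They were counted as 1 library, called the duplicated library below, whose labels leave its tissue undecided. The comparison thus has 3 distinct libraries: fibrosis replicate 1, the duplicated library and normal replicate 1. Values are reads per 1000000 reads (RPM), and the totals behind them were 6951148, 6357069 and 7070374 reads in that order. In tissue, fewer cells of a type and less of an RNA per cell cannot be told apart.

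A miRNA gene is transcribed as a longer RNA that folds back on itself, and the enzymes Drosha and Dicer cut the hairpin into a duplex of a 5p and a 3p arm. As a rule 1 arm is kept by an Argonaute protein and guides it to messenger RNAs through its seed, bases 2 to 8, while the other arm is mostly degraded. miR-122 comes from the 5p arm, is made almost only in hepatocytes, and is known for its part in lipid and cholesterol metabolism and in keeping hepatocytes differentiated. Mice that lack it develop fatty liver and fibrosis with age, which makes its level in a fibrotic liver of interest.

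The sequences of both arms and of their hairpin are shown because every result below is a count of reads on 1 of these arms. They are the RefSeq entries of the rat gene Mir122 on build GRCr8, and miR-122* was taken as the 3p entry because the gene has no other mature product in that table. In the arms the capitals mark the seed, and in the hairpin they mark the arms.
miR-122 (5p arm): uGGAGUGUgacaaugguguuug
miR-122* (3p arm): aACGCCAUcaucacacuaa
Mir122 hairpin: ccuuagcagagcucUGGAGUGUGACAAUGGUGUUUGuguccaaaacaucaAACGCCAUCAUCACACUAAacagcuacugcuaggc
The hairpin of 85 bases lies on the plus strand at chr18:61028817-61028901, within the span that RefSeq gives to a transcribed pseudogene, LOC134482951. The 5p arm takes hairpin positions 15 to 36 and the 3p arm positions 51 to 69, with 14 bases between them. RNAfold gave the hairpin a predicted energy of -42.6 kcal/mol, with 18 of the 22 bases of the 5p arm and 15 of the 19 bases of the 3p arm paired.

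Neither arm has a near relative in the table with which it could readily exchange reads. Of 693 mature rat miRNAs with 584 distinct seeds, 0 others carried the seed of miR-122 and 0 others that of miR-122*. The longest run of bases that miR-122 shared with a mature miRNA of another gene was 9, with miR-3551-5p, and for miR-122* it was 7, with miR-136-3p. How the authors assigned reads is not stated in the labels, so this describes the sequences and not their counting.

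The opposite strand of the same locus is annotated as another miRNA gene, Mir3591, whose mature sequence is shown because it is the exact reverse complement of bases 1 to 20 of miR-122.
miR-3591, opposite strand: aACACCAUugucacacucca
miR-3591 had 0 reads in each of the 3 libraries. A count of 0 allows up to 3 reads, or 0.432 RPM in fibrosis replicate 1, 0.472 RPM in the duplicated library and 0.424 RPM in normal replicate 1. Against that limit, set per library, miR-122 was at least 565164-fold higher than miR-3591 in fibrosis replicate 1, at least 525372-fold in the duplicated library and at least 620165-fold in normal replicate 1. At this depth the tables thus list reads of this locus under the miR-122 names alone. Whether the authors' counting kept the 2 strands apart is not stated in the labels, so this describes the tables and not the locus.

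miR-122 was the most abundant miRNA in each library. It had 1695491 reads or 243915 RPM in fibrosis replicate 1, 1576115 reads or 247931 RPM in the duplicated library, and 1860495 reads or 263140 RPM in normal replicate 1. The 95% exact binomial intervals were 243596 to 244235 RPM, 247595 to 248267 RPM and 262815 to 263464 RPM. Normal replicate 1 was thus the highest and fibrosis replicate 1 the lowest, and none of the 3 intervals overlapped. All intervals given here cover counting error only, as the reads carry no molecular identifiers that would tell copies of 1 molecule apart. The mean over the 3 libraries was 251662 RPM ± 10141 (SD, n = 3), and the highest library exceeded the lowest 1.08-fold.

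miR-122* was far rarer but well counted, with 953 reads in fibrosis replicate 1, 898 in the duplicated library and 1136 in normal replicate 1. These are 137 RPM (128.5 to 146), 141 RPM (132 to 151) and 161 RPM (151 to 170). The order of the libraries was that of miR-122, but the intervals of fibrosis replicate 1 and the duplicated library overlapped. The mean was 146 RPM ± 12.6 (SD, n = 3). By level miR-122* ranked 26th of all names in fibrosis replicate 1 and 25th in both other libraries.

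**Figure D1:**
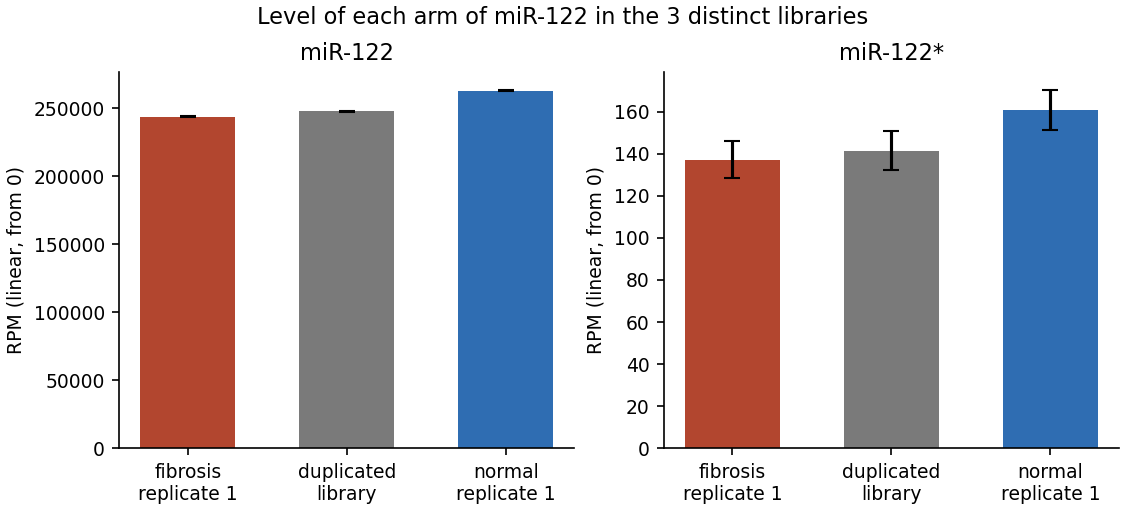
Bars give the RPM of miR-122 (left) and miR-122* (right) in the 3 distinct libraries on linear axes from 0, and error bars give 95% exact binomial intervals for counting error. Both arms were highest in normal replicate 1, at 263140 and 161 RPM, and the intervals of miR-122* in the other libraries overlap.

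As a share of the reads on listed miRNAs, miR-122 took 48.3% in fibrosis replicate 1, 47.2% in the duplicated library and 50.9% in normal replicate 1. miR-122* took 0.0272% (0.0255 to 0.0290), 0.0269% (0.0252 to 0.0287) and 0.0311% (0.0293 to 0.0330). On this scale the duplicated library, not fibrosis replicate 1, was the lowest for both arms. The next most abundant miRNA was let-7c in fibrosis replicate 1 and in the duplicated library and let-7f in normal replicate 1, and miR-122 exceeded it 2.94-fold, 3.004-fold and 3.57-fold.

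Much of the difference in share lay between miR-122 and the let-7 names, a family that restrains growth genes and is found in most adult tissues. Reads on both miR-122 arms made 1.02 times those on let-7 names and miR-98 in fibrosis replicate 1, 0.964 times in the duplicated library and 1.14 times in normal replicate 1. All remaining miRNAs held only 4.03%, 3.79% and 4.29% of the miRNA reads. Relative to these, the miR-122 arms stood at 12.01, 12.5 and 11.9 times, so that normal replicate 1 was then the lowest and not the highest. Within reads other than let-7 and miR-98, miR-122 alone made 92.3% in fibrosis replicate 1, 92.5% in the duplicated library and 92.2% in normal replicate 1. The miRNA reads of these livers thus consisted almost wholly of the 2 groups, and a share of 1 is tied to the share of the other.

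**Figure D2:**
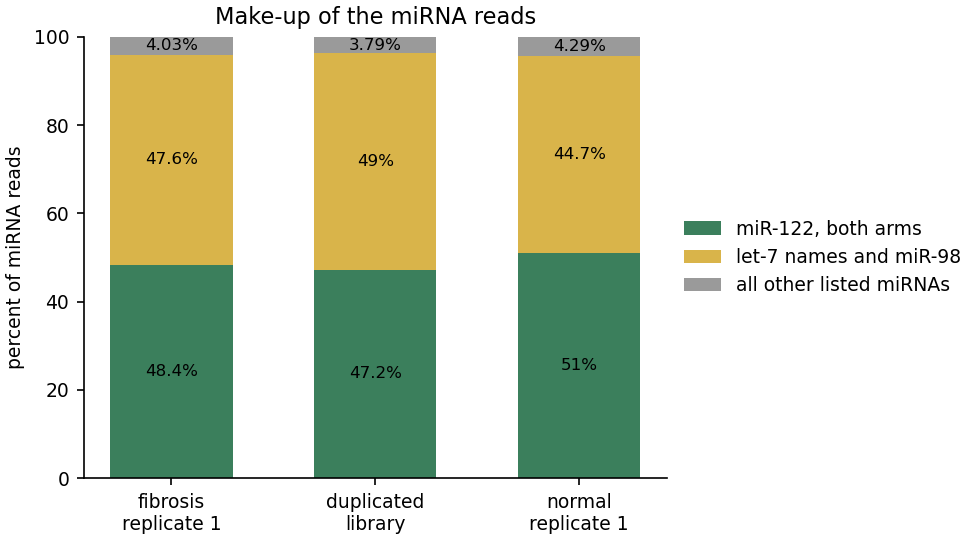
Stacked bars give the percent of miRNA reads on both miR-122 arms, on the let-7 names with miR-98, and on all other listed miRNAs in the 3 distinct libraries. The let-7 part is smallest, at 44.7%, in the library where the miR-122 part is largest, normal replicate 1, and all other miRNAs stay between 3.79% and 4.29%.

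The study's design asks whether miRNAs differ between fibrotic and normal liver, and only 1 library stands under a single label on each side. In fibrosis replicate 1 miR-122 was at 0.927 times its RPM in normal replicate 1 (95% counting interval 0.925 to 0.929), and miR-122* at 0.853 times (0.782 to 0.931). Both intervals excluded 1. In this pair 76 miRNAs averaged 10 RPM or more. Of these, 57.9% had intervals that excluded 1 and 34.2% had intervals below 1, so an interval that excludes 1 was common here. Neither member reached a 1.5-fold difference, which 7.89% of the 76 did.

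The ratio of miR-122 was that of a typical miRNA in this pair. Its log2 ratio was -0.11, and the median over the 76 miRNAs was also -0.11. That of miR-122* was -0.23. In size, the ratio of miR-122 was the 14th smallest of 76 and that of miR-122* the 37th, with a median absolute log2 ratio of 0.24. Centred on the median of the 76, miR-122 stood at 0.0016 and miR-122* at -0.12.

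The direction for miR-122 depended on what it was measured against, since a scaling shifts all miRNAs of a library alike. The log2 ratio of fibrosis replicate 1 over normal replicate 1 lay between -0.18 and -0.042 with the 5 other scalings planned, among them TMM and DESeq2 size factors. It was 0.017, above 0, when reads were scaled to the listed miRNAs other than miR-122, let-7 and miR-98. miR-122* kept a ratio below 1 under each of these 7 alternatives to the authors' total, from -0.30 to -0.10. Its counting interval, -0.35 to -0.10 around -0.23 in RPM, shifts with the scaling. At the ratios nearest to 0, -0.12 when centred and -0.10 without miR-122, let-7 and miR-98, the shifted interval included 0.

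**Figure D3:**
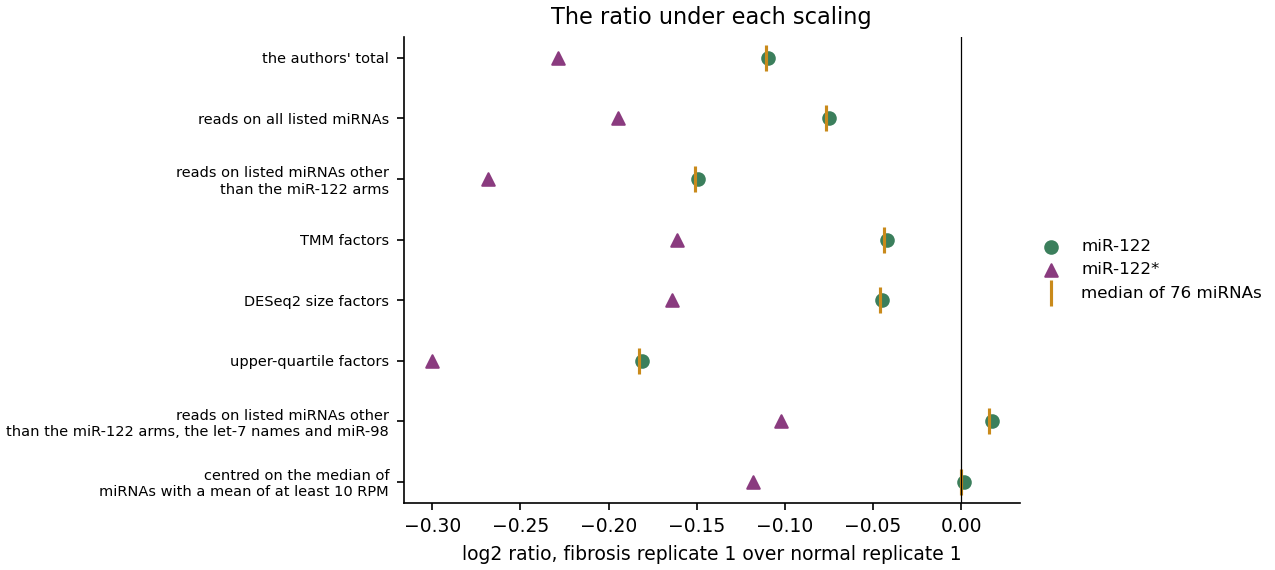
Each line is a scaling, and the x axis gives the log2 ratio of fibrosis replicate 1 over normal replicate 1 for miR-122 (circles), miR-122* (triangles) and the median of 76 miRNAs (ticks). A scaling shifts all values alike, so miR-122 stays on the median, and it crosses 0 in the lowest 2, whereas the value of miR-122* stays below 0. In those lowest 2 the counting interval of miR-122*, which is not drawn, includes 0.

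The duplicated library was nearer to fibrosis replicate 1 than to normal replicate 1 in the RPM of both arms. Against normal replicate 1 it stood at 0.942 times for miR-122 (0.940 to 0.944) and 0.879 times for miR-122* (0.805 to 0.960). In that pair 72.6% of 73 miRNAs had intervals that excluded 1. Fibrosis replicate 1 stood at 0.984 times the duplicated library for miR-122 (0.982 to 0.986) and 0.971 times for miR-122* (0.885 to 1.06), the latter with an interval that included 1. In that pair 68.1% of 72 miRNAs had intervals that excluded 1. For miR-122 the direction against normal replicate 1 was again tied to the scaling: its log2 ratio of the duplicated library over normal replicate 1 was -0.086 in RPM and stayed below 0, from -0.22 to -0.027, in 4 of the 7 other scalings. It was above 0 in the other 3, at 0.029 with DESeq2 size factors, 0.054 with upper-quartile factors and 0.072 without miR-122, let-7 and miR-98 in the total.

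**Figure D4:**
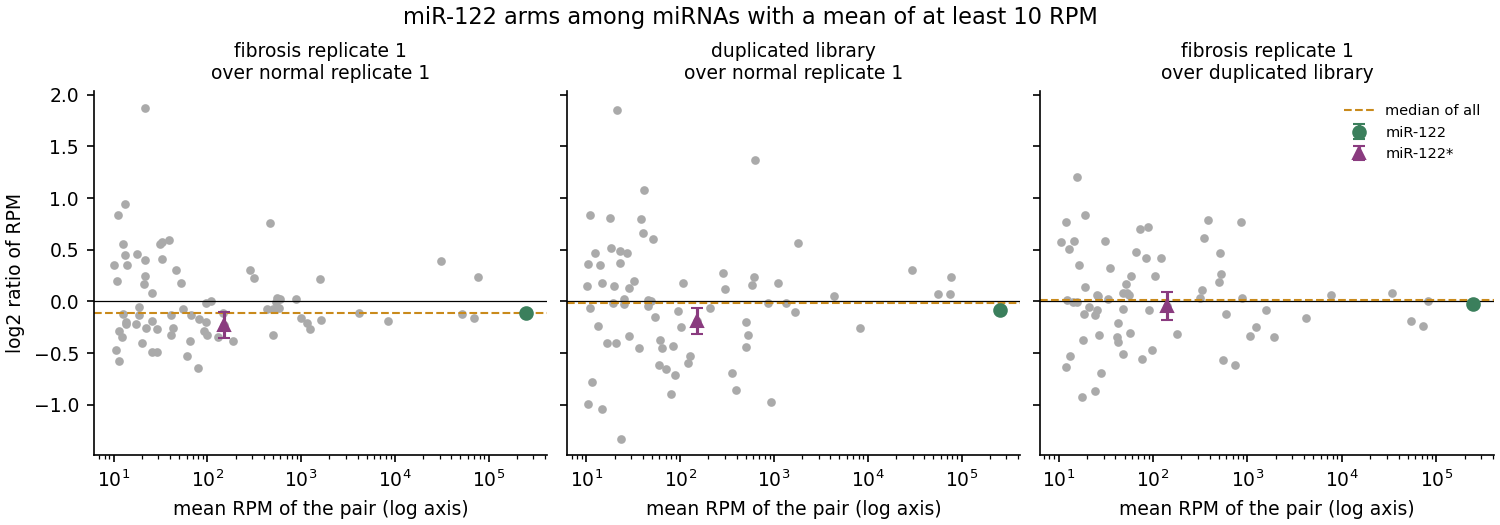
Each panel is a pair of libraries, with mean RPM on a log x axis and the log2 ratio of RPM on the y axis for miRNAs averaging 10 RPM or more (grey), miR-122 (circle) and miR-122* (triangle with its 95% counting interval). In the left panel miR-122, at -0.11, lies on the dashed median of all miRNAs.

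With the duplicated library between the other 2 in RPM, fibrosis was lower than normal without overlap for both arms whichever of its labels was taken. That order was shared by 12.3% of 73 miRNAs, and 23.3% had no overlap in either direction. Counted as fibrosis, miR-122 averaged 245923 RPM ± 2840 (SD, n = 2) in fibrosis against 263140 RPM in 1 normal library. Counted as normal, it was 243915 RPM in 1 fibrosis library against 255535 RPM ± 10754 (SD, n = 2) in normal. For miR-122* the means were 139 ± 2.94 RPM (SD, n = 2) against 161 RPM, and 137 RPM against 151 ± 13.7 RPM (SD, n = 2). In shares of miRNA reads this order did not hold, and with the duplicated library counted as normal the groups overlapped for both arms.

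No test of fibrosis against normal called either arm. With the duplicated library counted as fibrosis, limma on log2(RPM + 1) gave miR-122 a difference of -0.098 (SE 0.046, adjusted p = 0.687) and miR-122* one of -0.21 (SE 0.10, adjusted p = 0.687). With it counted as normal, limma gave -0.067 (SE 0.096, adjusted p = 0.892) for miR-122 and -0.14 (SE 0.16, adjusted p = 0.892) for miR-122*. Of the 294 miRNAs in each of these fits limma called 0, a share of 0%, at an adjusted p under 0.05, with 36 and 27 at an unadjusted p under 0.05, and edgeR on the recovered reads called 0 as well, with 9 and 1. Without a filter limma called 1 of 680 names in each fit (0.147%), and DESeq2 called 1 of 294 (0.34%) with the duplicated library counted as fibrosis and 0 with it counted as normal. None of these calls was a miR-122 arm. The lone library of a group is assumed to vary like the others in these fits, and with 3 libraries a p above the threshold does not show that the arms did not differ.

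The balance of the arms was steady across libraries. There were 1779 reads of miR-122 per read of miR-122* in fibrosis replicate 1 (1670 to 1898), 1755 in the duplicated library (1644 to 1876) and 1638 in normal replicate 1 (1545 to 1737). The minor arm thus made 0.0562%, 0.0569% and 0.0610% of the reads of the gene. Unlike a level, this ratio does not depend on the scaling. The arm ratio of fibrosis replicate 1 was 1.09 times that of normal replicate 1 (exact conditional 95% interval 0.996 to 1.19), and that of the duplicated library 1.07 times (0.981 to 1.17). Fibrosis replicate 1 over the duplicated library gave 1.01 (0.924 to 1.11). All 3 intervals included 1, so a difference in arm use was not detectable at this depth, and the first of them allows for one of up to 1.19 times.

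The arm ratio of miR-122 was high, but not extreme for so abundant a miRNA. Both arms were listed for 259 miRNAs, and 37 of these had at least 10 reads on the minor arm over the 3 libraries. Among the 37, miR-122 ranked 2nd with 1718 reads of the major arm per read of the minor arm over the 3 libraries, below miR-192 and above let-7d. miR-192, another hepatocyte miRNA, had 11801 to 1, on 14 reads of miR-192*, and let-7d 587 to 1. The median of the other 36 was 8.77 to 1. Between fibrosis replicate 1 and normal replicate 1 the arm ratio differed beyond counting error for 8.11% of the 37, none of them miR-122, and for 16.2% in each of the other pairs of libraries.

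The minimum on the minor arm hides miRNAs with a still rarer minor arm. To show a ratio like that of miR-122 with 10 minor reads takes 17181 major reads, and 10 of the 259 pairs had as many over the 3 libraries. Of the 9 besides miR-122, 7 had a higher ratio and 2 a lower one. let-7b, for one, had 642377 reads against 2 for let-7b*, and miR-29a had 33503 against 6. miR-29a and let-7b were picked here after their values were seen.

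**Figure D5:**
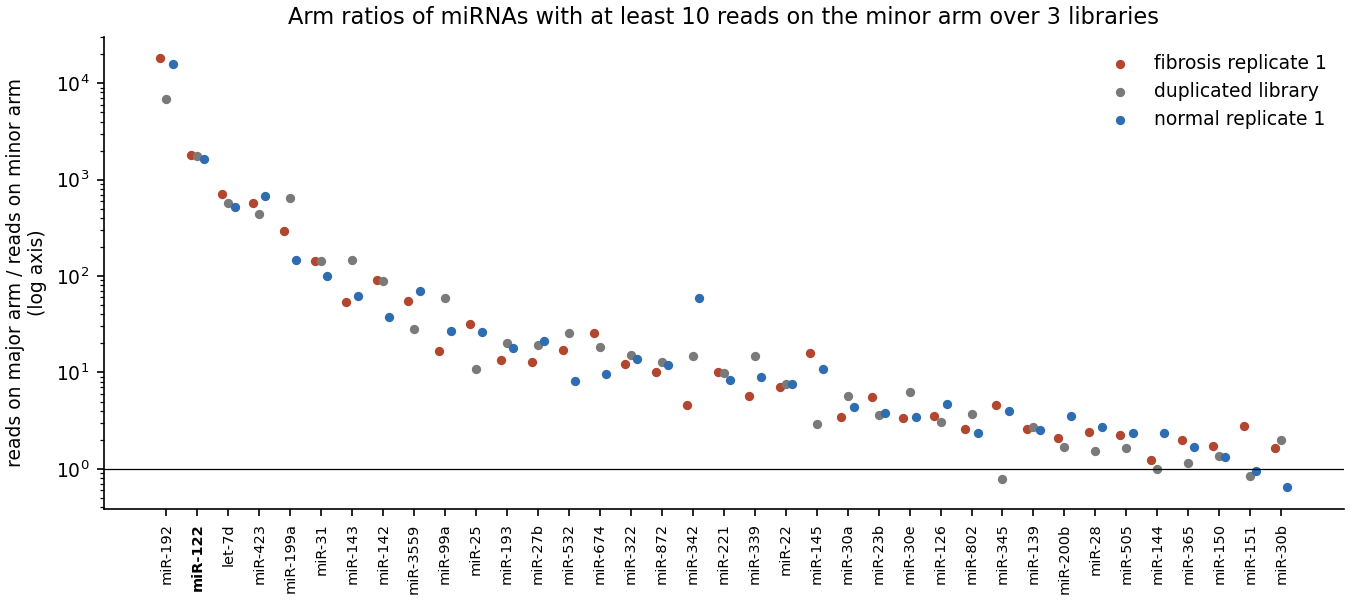
Points give the reads on the major arm per read on the minor arm (log axis), 1 colour per library. Shown are the 37 miRNAs with matching arm names and at least 10 minor-arm reads over the 3 libraries. The 3 points of miR-122 lie close together, from 1638 to 1779, second only to miR-192.

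miR-122* was among the commonest names with an asterisk. It ranked 3rd of the 242 such names in each library, behind miR-423* and miR-140*, which are the major arms of their genes in these data. It held 5.95% of the reads on such names in fibrosis replicate 1 (5.59 to 6.33), 7.60% in the duplicated library (7.13 to 8.09) and 6.46% in normal replicate 1 (6.10 to 6.83).

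Other miRNAs of a list drawn up for hepatocytes lay on the same side as miR-122 in fibrosis replicate 1. Of that list only miR-122, miR-192 and miR-194 were set as markers of the cell type. Of its 13 names, 12 had a row, 1 (miR-148a) was not analysed here, and 8 had a mean of at least 10 RPM. All 8 of these, both miR-122 arms included, were lower in fibrosis replicate 1 than in normal replicate 1 in RPM, 7 of them with intervals below 1. The median log2 ratio of the 8 was -0.25. Over the 76 miRNAs 47 were lower, 34.2% had intervals below 1, and the median was -0.11. In the duplicated library 7 of the 8 were lower than in normal replicate 1, as were 38 of 73 miRNAs, and miR-193 was higher, at 34.6 RPM against 30.1 RPM. With the ratios of fibrosis replicate 1 over normal replicate 1 centred on the median of the 76, 7 of the 8 remained below 0. miR-122, at 0.0016, was the one that did not.

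In fibrosis replicate 1 the other members stood further below normal replicate 1 than miR-122 did, which was at 0.927 times. miR-192 and miR-194, made from shared clusters and abundant in liver and gut, stood at 0.876 times (0.866 to 0.886) and 0.692 times (0.602 to 0.795) their RPM in normal replicate 1. miR-101a stood at 0.769 times (0.711 to 0.831), miR-101b at 0.834 times (0.810 to 0.859) and miR-193 at 0.712 times (0.573 to 0.881). miR-30a stood at 0.891 times, with an interval (0.792 to 1.002) that included 1 and the ratio of miR-122. miR-122 thus exceeded miR-192 by 31.2-fold in fibrosis replicate 1, 33.1-fold in the duplicated library and 29.4-fold in normal replicate 1, and miR-194 by 4886-fold, 5254-fold and 3648-fold. Relative to both, and to miR-30a, miR-122 was lowest in normal replicate 1. Relative to miR-101a, miR-101b and miR-193 it was lowest in the duplicated library. There miR-101a (201 against 211 RPM) and miR-101b (1353 against 1368 RPM) lay relatively nearer to normal replicate 1 than miR-122 did. miR-192, miR-194 and miR-30a lay further below it in that library, and miR-193 above it.

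Markers of other cell types were rare beside miR-122 in each library. The mesenchymal and smooth muscle list (5 of 5 names with reads) summed to 669 RPM in fibrosis replicate 1, 1009 RPM in the duplicated library and 466 RPM in normal replicate 1, most of it miR-199a-3p at 592, 903 and 350 RPM. The leukocyte list (6 of 7 names, miR-155 not analysed here) summed to 55.0, 75.2 and 46.1 RPM. The endothelial (2 of 2 names), biliary and other epithelial (5 of 5), erythroid (2 of 2) and striated muscle (5 of 5) lists each stayed under 40 RPM in each library. miR-141 was at 0 reads in fibrosis replicate 1 and normal replicate 1, and miR-133a and miR-133b in fibrosis replicate 1 and the duplicated library. The mesenchymal and leukocyte sums were lowest in normal replicate 1, where miR-122 was highest in RPM, but single members differed. The mesenchymal sum followed miR-199a-3p, while miR-143 (62.1, 91.2 and 97.3 RPM) and miR-145 (9.21, 6.92 and 13.7 RPM) were highest in normal replicate 1. The leukocyte sum followed miR-142-5p (39.4, 56.0 and 26.4 RPM), and miR-342-3p was highest in normal replicate 1 (5.32, 4.72 and 8.34 RPM). The erythroid sum was also highest there, at 7.78 RPM against 2.88 RPM in fibrosis replicate 1 and 2.04 RPM in the duplicated library. The part of these cell types in the level of miR-122 was not tested.

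Few miRNAs were as even in RPM across the libraries as miR-122. The measure includes counting error, which is larger for rarer miRNAs, so its ranks compare miRNAs of unlike depth. miR-122 itself also made 24.4% to 26.3% of the total behind its RPM. Its coefficient of variation over the 3 libraries was 4.03%, the 3rd lowest of 73 miRNAs averaging 10 RPM or more, and that of miR-122* was 8.60%, the 14th lowest, against a median of 16.1%. The 5 miRNAs nearest to miR-122 in pattern, by Euclidean distance between log2 RPM centred on each miRNA's mean over the 3 libraries, were miR-29a (0.055), miR-125a-5p (0.070), miR-340-5p (0.078), miR-122* (0.091) and miR-140* (0.092), against a median distance of 0.36 over 72 miRNAs. The minor arm was thus the 4th nearest to its own major arm. Of the 5, miR-29a and miR-122* shared the order of the libraries seen for miR-122, as did miR-125a-5p, and miR-340-5p and miR-140* did not. With 3 libraries this likeness is a description only.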

How the data were processed

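Total RNA of rat liver was made into small RNA libraries, per the labels' protocols. CASAVA 1.4 and build rn5 are named in the submitters' processing notes, while aligner, miRNA annotation and the treatment of reads with several matches were not given in the sources used here. The deposited tables give reads per 1000000 reads (RPM), scaled by the authors to a total that includes reads on no listed miRNA. 50.5% to 52.5% of that total fell on listed miRNAs. Each value above 0 was a whole multiple of the value of 1 read (100% within 0.01 reads), so whole reads were recovered.

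Groups came from the tissue label. Ratios between libraries carry exact (Clopper-Pearson) 95% intervals of reads, and arm ratios were compared by exact conditional intervals. limma 3.58.1 (R 4.3.3) was fitted to log2(RPM + 1) with a trended prior variance, and p-values were adjusted by Benjamini and Hochberg over all miRNAs above 0 in a library. The pseudocount of 1 shrinks differences of low miRNAs. Alternatives on the recovered reads were edgeR 4.0.16 (quasi-likelihood) and DESeq2 1.42.0. Pairing by replicate number was fitted on the 4 tables as labelled. Folding used RNAfold 2.7.2, and other steps used Python 3.11.15 with scipy 1.17.1. The members, lists and tests were chosen with earlier results of these data known. Named miRNAs are both arms, the hepatocyte list at a mean of at least 10 RPM, the 5 nearest in pattern, the 3 highest arm ratios with the neighbours of miR-122, and other cell types as whole lists.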

Additional observations from a re-analysis of the deposited data

How the results depend on the processing

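With 3 distinct libraries and counting intervals as the error of a level, depth limits miR-122* and not miR-122. The log2 ratio of miR-122, fibrosis replicate 1 over normal replicate 1, moved from -0.11 to -0.075 when scaled to all listed miRNAs, -0.15 without the miR-122 arms, -0.042 with TMM, -0.045 with DESeq2 size factors and -0.18 with upper-quartile factors. It turned to 0.017 without let-7 and miR-98 as well, and to 0.0016 when centred on the median, both chosen after seeing the data, and the change comes from the construction of each scaling. For miR-122* the ratio without miR-122, let-7 and miR-98 was -0.10, with a counting interval, shifted alike, that included 0. The share of miR-122 was 24.4%, 26.3% and 24.8% of the authors' total, and 92.3%, 92.2% and 92.5% of miRNA reads without let-7 and miR-98, in fibrosis replicate 1, normal replicate 1 and the duplicated library. Adding 1 read to each arm left the log2 ratio of the arm ratios at 0.119. With so many reads it could hardly move, so this is no check on its steadiness.

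Neither arm passed the threshold in any of the fits, and their differences stayed below 0 in all 66 alternatives to the 3 limma fits. These alternatives refit the same libraries. They do not include the scalings above that put miR-122 above 0, so the shared sign is no check on the scaling. Fitted to 4 tables as labelled, limma called 0 of 294 (4 at an unadjusted p under 0.05; edgeR 0, DESeq2 0), with -0.055 for miR-122 and -0.11 for miR-122*, and leaving out each library in turn again gave 0 calls and a range of -0.098 to -0.012 and -0.21 to -0.021. As the duplicated library is then in both groups, each difference shrinks by construction. With the replicate number as a block the same values, -0.055 and -0.11, and 0 calls were found; the labels do not say that a number marks a shared animal or day. With the duplicated library counted as fibrosis, limma without a filter called 1 miRNA, miR-27a, and DESeq2 1, miR-146b; counted as normal, limma without a filter called 1, miR-138. The cause was not tested. Leaving out each library gave miR-122 differences of -0.11 to -0.086 in the first of these layouts and -0.11 to -0.024 in the second, and miR-122* differences of -0.23 to -0.18 and -0.23 to -0.043. In the second layout the smallest differences, -0.024 and -0.043, came without normal replicate 1, and the largest without normal replicate 2.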
